A study of Mus musculus with 4 samples.

Results

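The genes described here are the collagens and a set of 8 genes known from meningeal fibroblasts, in cortex of mouse embryos with and without functional Pax6. Collagens were found by name, as every gene whose symbol is Col, a number, the letter a and a second number, which gave 44 genes. The 8 others, Dcn, Lum, Foxc1, Foxd1, Ogn, Islr, Slc6a13 and Aldh1a2, were listed by symbol and all were present. Together they are 52 of the 22770 genes in the deposited table.

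Brain cortex of embryos at embryonic day 16.5 was dissected and frozen, and its RNA was sequenced in 4 libraries. There were 2 libraries from wild-type littermates and 2 from embryos homozygous for the small eye allele (Pax6 sey/sey), all on a mixed background of C57BL/6J, 129S6 and CD1. Pax6 encodes a transcription factor that cortical progenitors need, absent in function from every cell of these mutants, so the tissue around the cortex carries the mutation too. The labels do not say whether a library came from 1 embryo or from pooled tissue, or whether replicates were separate animals, so p-values measure only the spread between these libraries.

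Collagens are secreted proteins whose chains wind into rigid helices outside the cell. Fibrillar collagens form the cables of connective tissue, type IV collagen forms the sheet of basement membranes, and the others decorate fibrils, link cells to the matrix or span the cell membrane. In embryonic brain, neurons and their progenitors make little collagen. The meninges, the membranes wrapped around the brain, hold fibroblasts that make types I, III and VI collagen, and blood vessels and the pial surface are lined by type IV collagen. Meningeal fibroblasts also depend on Foxc1 and make retinoic acid through the enzyme encoded by Aldh1a2.

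Values are FPKM, fragments counted on a gene's exons scaled by exon length and by library size, so levels of different genes can be compared per length. Column totals were 579698 to 593256 FPKM, and relative depth, read from the steps of the lowest values, was 0.783 to 1.19 of that of wild-type library 1. About 1 fragment was worth 0.0450 to 0.0706 FPKM for a gene with 2 kb of exon. Pax6 RNA was 28.8 and 27.0 FPKM in wild types and 101 and 120 FPKM in mutants, and because the allele leaves a transcript this level does not check the genotype. Mutant library 1 had 350 FPKM of Xist and Ddx3y listed at 0. The other 3 libraries had at most 0.224 FPKM of Xist and 16.5 to 23.3 FPKM of Ddx3y. Mutant libraries 1 and 2 thus differed in sex and came from different animals, while for the wild types this is not known. All 10 cortical marker genes examined were above the filter on low values (wild types are given first), and limma called 4 lower and 1 higher in mutants. Lower were Tbr1 (111 and 117 against 65.5 and 59.3 FPKM), Neurod2 (213.5 and 229.6 against 134 and 118 FPKM), Neurod6 (534 and 588 against 352 and 323 FPKM) and Emx1 (29.0 and 29.9 against 17.2 and 15.7 FPKM), and Sox2 was higher (25.8 and 22.9 against 78.5 and 93.1 FPKM). Choroid plexus markers summed to between 1.03 and 2.00 FPKM and markers of bone, cartilage, muscle and skin to 0.440 to 0.926 FPKM. The most abundant of these were Ttr (1.56 and 0.871 against 0.112 and 0.491 FPKM), Aqp1 (0.148 and 0.425 against 0.806 and 0.217 FPKM) and Kcne2 (0 and 0.162 against 0.219 and 0.320 FPKM) for choroid plexus. For the other tissues they were Runx2 (0.377 and 0.644 against 0.355 and 0.231 FPKM), Ibsp (0.0729 and 0.0463 against 0.421 and 0.154 FPKM) and Acan (0.0615 and 0.0759 against 0.0673 and 0.02496 FPKM).

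Sequence before or at the start is shown for the members whose levels are the base of the results below. These are the fibrillar genes Col1a2 and Col3a1, which were high in the same library, and the pair Col4a1 and Col4a2, which held a steady ratio. RefSeq promoter windows (GRCm38.p6) were found for 41 of the 52 genes. The stretches before the RefSeq starts of Col1a2 and Col3a1 that lie outside annotated exons are chr6:4505370-4505492 and chr1:45311288-45311537, both on the plus strand. In the GENCODE annotation Col1a2 starts earlier, at 4504814, so its stretch lies inside that annotated gene, between exons. Capitals mark GGGCGG, the guanine-rich box bound by Sp1, in Col1a2, at 205 and 188 bases before the RefSeq start. The Col1a2 stretch ends short of that start. In Col3a1 they mark TATAAA, the letters of a box found before many tissue-specific genes. This match lies 117 bases before the RefSeq start.
Col1a2: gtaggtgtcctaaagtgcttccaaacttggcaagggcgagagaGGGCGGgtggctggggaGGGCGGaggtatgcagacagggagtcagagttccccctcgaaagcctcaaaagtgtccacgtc
Col3a1: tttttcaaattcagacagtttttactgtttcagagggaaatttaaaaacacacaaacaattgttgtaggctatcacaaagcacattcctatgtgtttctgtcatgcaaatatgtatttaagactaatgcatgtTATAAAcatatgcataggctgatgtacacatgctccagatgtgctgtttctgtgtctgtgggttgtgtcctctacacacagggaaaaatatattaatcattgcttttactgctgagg
Col4a2: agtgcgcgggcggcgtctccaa
Col4a1: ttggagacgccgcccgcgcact

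The last pair of lines shows the 22 bases at chr8:11312805-11312826 that lie between the starts of Col4a2 (plus strand) and Col4a1 (minus strand), once on each strand. No matches are marked in these lines, though the Col4a2 line holds GGGCGG and the Col4a1 line its reverse complement. These genes stand head-to-head, a well-known arrangement of type IV collagen genes, and overlap by those 22 bases. The stretch thus lies inside both genes and not before either start. Col4a4 and Col4a3 on chromosome 1 are head-to-head with a gap of 71 bases, and Col4a6 and Col4a5 on the X chromosome with a gap of 1308 bases. In the 250 bases before the start, read on both strands, GGGCGG occurred in 54.4% of the 46 member windows (several genes have more than 1) and in 32.7% of all 32851 windows. TATAAA occurred in 13.0% and 12.4%, and CCAAT in 37.0% and 33.9%. A match of letters is a description and not a binding site.

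After a filter of at least 0.5 FPKM in 2 or more libraries, 29 of the 52 genes could be tested: 8 of 11 fibrillar collagens, 5 of 8 basement membrane collagens (types IV, XV and XVIII), 11 of 25 other collagens and 5 of the 8 listed genes. Of these 29, Col1a1, Col6a2, Col6a3 and Slc6a13 passed the filter through the mutants alone and Col22a1 through the wild types alone, so a difference in those 5 was built into their selection. Genotype was tested with limma on log2(FPKM + 0.5) over all 15399 genes that passed. Only 1 of the 29 genes, Col22a1, passed an adjusted p under 0.05 and it was lower in mutants, while 0 were called higher. Over the whole table, 3.48% of tested genes were called, 2.02% higher and 1.46% lower. An unadjusted p under 0.05 was reached by 11 of the 29, where 19.5% of all tested genes reached it. The 5 genes that passed the filter through one genotype were all among the 11, and of the other 24 tested members 6 (25.0%) reached it.

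**Figure D1:**
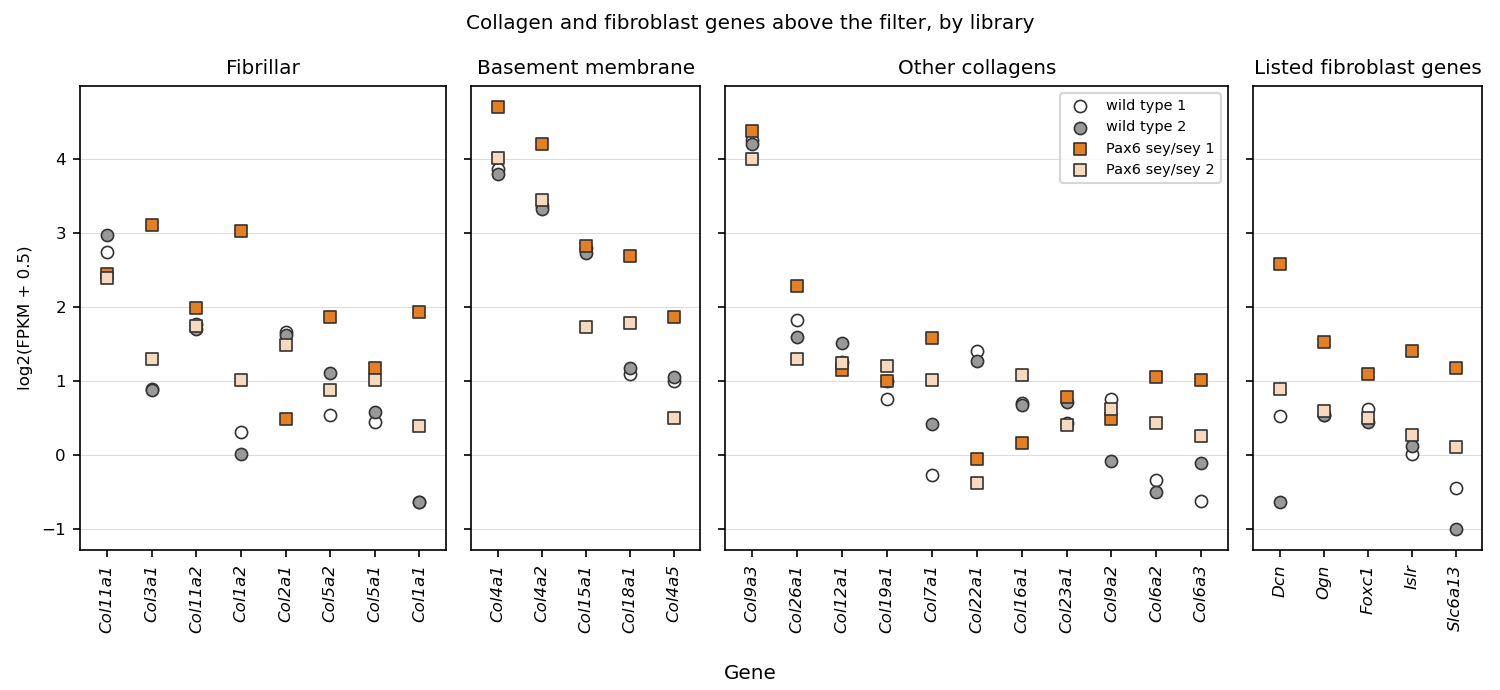
Level of each of the 29 tested genes in each library, as log2(FPKM + 0.5), grouped by class and ordered by mean level, with circles for wild types and squares for Pax6 sey/sey libraries. The orange square, mutant library 1, is the highest point for 22 of the 29 genes (22.3% of all tested genes), while Col22a1 has both squares below both circles.

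Col22a1 encodes a chain of type XXII collagen, a fibril-associated collagen best known from muscle-tendon junctions. Its level was 2.15 and 1.90 FPKM in wild types and 0.465 and 0.270 FPKM in mutants. Both mutants lay below both wild types, and mutant library 1, the high library for most of the other genes, was among the low ones here. Col22a1 passed the filter through the wild types alone, so the order of the genotypes was built into its selection. The log2 fold change was -1.55 (SE 0.25, limma adjusted p = 0.0466). The call was lost when any 1 library was left out, with adjusted p from 0.119 to 0.239 and log2 fold changes from -1.71 to -1.39. It was also lost with a pseudocount of 0.1, no filter, a filter of 1 FPKM, no variance trend or a replicate block (adjusted p from 0.0530 to 0.0991), and it held in 3 of the 12 alternatives. Col22a1 (ENSMUSG00000079022) lies on chromosome 15 from 71795795 to 72034227 in GRCm38 on the minus strand, with 66 annotated exons that overlap those of Gm16308. Because strand use is not stated, fragments from both genes cannot be told apart.

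Among the fibrillar collagens, the connective tissue types I and III were the genes with the highest values in mutant library 1 relative to the other libraries. Col1a1 and Col1a2 encode the chains of type I collagen, the main collagen of bone, skin and meninges. Col1a1 was 0.140 and 0.140 FPKM in wild types and 3.30 and 0.802 FPKM in mutants. The wild-type values rest on roughly 7.76 and 6.49 fragments, estimated from the step of 1 fragment and the union of exons. For Col1a2 the wild types had 0.739 and 0.509 FPKM and the mutants 7.63 and 1.51 FPKM. In both genes each mutant lay above both wild types, but the mutants differed from each other by more than 4-fold. For Col1a1 the order of the genotypes was fixed by the filter, which it passed through the mutants alone. Log2 fold changes were 1.80 for Col1a1 (SE 0.54, limma adjusted p = 0.173) and 1.86 for Col1a2 (SE 0.67, limma adjusted p = 0.228), and without mutant library 1 they were 1.03 and 0.85. In bulk tissue, more cells of a type and more RNA per cell cannot be told apart.

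Type III collagen, encoded by Col3a1, runs with type I in soft connective tissue and vessel walls. Its level was 1.34 and 1.33 FPKM in wild types and 8.09 and 1.94 FPKM in mutants (log2 fold change 1.32, SE 0.60, limma adjusted p = 0.314). Here mutant library 2 stood just above the wild types and mutant library 1 far above. Without mutant library 1 the log2 fold change was 0.41.

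Type V collagen is a minor collagen that starts type I fibrils. The mutants lay close together and above both wild types for its gene Col5a1, at 1.76 and 1.51 FPKM against 0.861 and 0.994 FPKM. The log2 fold change was 0.58 (SE 0.22, limma adjusted p = 0.247). Col5a2, which lies 24614 bases from Col3a1 on chromosome 1, was 0.950 and 1.66 FPKM in wild types and 3.12 and 1.34 FPKM in mutants. Its groups overlapped, because mutant library 2 lay between the wild types.

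Types II and XI, the cartilage-type fibrillar collagens, did not follow types I and III. Col11a1 was the most abundant fibrillar gene in wild-type cortex, at 6.17 and 7.30 FPKM, and was 4.94 and 4.74 FPKM in mutants (log2 fold change -0.43, SE 0.15, limma adjusted p = 0.209). Both mutants were below both wild types and close to each other. Col2a1 was 2.64 and 2.58 FPKM in wild types and 0.898 and 2.28 FPKM in mutants, so mutant library 1 was the lowest library for this gene. Col11a2 was 2.90 and 2.75 FPKM in wild types and 3.46 and 2.83 FPKM in mutants, with overlapping groups. The 3 fibrillar genes below the filter, Col5a3, Col24a1 and Col27a1, ranged from 0.0145 to 0.580 FPKM.

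The type IV genes Col4a1 and Col4a2, the chains of the network found in every basement membrane, were the most abundant of the basement membrane collagens. Col4a1 was 14.0 and 13.3 FPKM in wild types and 25.4 and 15.6 FPKM in mutants, and Col4a2 was 9.73 and 9.43 FPKM against 17.9 and 10.3 FPKM. Both mutants stood above both wild types for each gene, mutant library 2 only slightly. Log2 fold changes were 0.53 (SE 0.23, limma adjusted p = 0.299) and 0.48 (SE 0.26, limma adjusted p = 0.384), and 0.19 and 0.10 without mutant library 1. The ratio of Col4a1 to Col4a2 within a library lay between 1.41 and 1.51 in all 4 libraries. The table gives both genes the same locus, shared with Gm15418, and their exons overlap, so how fragments were divided between them is uncertain. Ratios of other partner chains varied more: that of Col1a2 to Col1a1 ran from 1.89 to 5.27, and that of Col5a2 to Col5a1 from 0.883 to 1.77. Those chains rest on fewer fragments, roughly 7.76 and 6.49 for Col1a1 in wild types. Col4a1 and Col4a2 had roughly 442 or more in each library, so the spreads of the ratios cannot be compared directly.

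Among the remaining basement membrane collagens, type XVIII was higher in both mutants and type XV was not. Col18a1 encodes the chain from which endostatin is cut. It was 1.63 and 1.75 FPKM in wild types and 5.92 and 2.95 FPKM in mutants (log2 fold change 1.10, SE 0.33, limma adjusted p = 0.170), and 0.65 on the log2 scale without mutant library 1. The table gives Col18a1 and Slc19a1 the same locus. Col15a1, its closest relative, was 6.44 and 6.12 FPKM in wild types and 6.58 and 2.81 FPKM in mutants. For Col15a1 mutant library 1 matched the wild types and mutant library 2 stood apart below them. Exons of Col15a1 overlap the annotated gene Gm12426, those of Col3a1 overlap Gm47302 and those of Col5a1 overlap Gm13372.

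The X-linked type IV genes differed between the mutant libraries in the same direction. Col4a5 was 1.49 and 1.56 FPKM in wild types and 3.12 and 0.908 FPKM in mutants, and its neighbour Col4a6 was 0.317 and 0.315 against 0.754 and 0.157 FPKM. Mutant library 1 was the highest and mutant library 2 the lowest for both. Mutant library 1 is also the one with Xist. Over the 526 tested X-linked genes the median difference between mutant libraries 1 and 2 was -0.02 on the log2 scale. A median over many genes does not bear on single ones. The part of sex in these values was not tested. Col4a3 and Col4a4, the remaining head-to-head pair, stayed at or below 0.273 FPKM, and Col4a4 was lower in both mutants (0.0726 and 0.106 FPKM) than in both wild types (0.229 and 0.273 FPKM).

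Type VI collagen, a beaded filament that anchors cells to the matrix and is made mainly by fibroblasts, had its 3 main chains higher in both mutants. Col6a1 was listed at 0 in wild-type library 1 and was 0.0229 FPKM in wild-type library 2, against 1.51 and 0.289 FPKM in the mutants, and it did not pass the filter. Col6a2 was 0.288 and 0.207 FPKM in wild types and 1.57 and 0.840 FPKM in mutants (log2 fold change 1.16, SE 0.32, limma adjusted p = 0.144). Col6a3 was 0.147 and 0.422 against 1.51 and 0.691 FPKM (log2 fold change 1.002, SE 0.38, limma adjusted p = 0.246, and 0.62 without mutant library 1). All 3 had mutant library 1 highest and mutant library 2 second. Col6a2 and Col6a3 passed the filter through the mutants alone, so the order of the genotypes was built into their selection. The wild-type values of Col6a1 rest on roughly 0 and 0.711 fragments. The other type VI genes, Col6a4, Col6a5 and Col6a6, stayed at or below 0.188 FPKM.

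Col7a1, which encodes the anchoring fibrils beneath epithelia, was 0.329 and 0.838 FPKM in wild types and 2.48 and 1.51 FPKM in mutants. Both mutants were above both wild types (log2 fold change 1.22, SE 0.36, limma adjusted p = 0.163), but the wild types also differed from each other by over 2-fold. The microRNA gene Mir711 lies within its exons.

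Several collagens of other classes were at similar levels in all libraries or had overlapping groups. Col9a3, a chain of the cartilage fibril-associated type IX, was the most abundant collagen of the wild-type libraries, at 18.5 and 17.8 FPKM. In mutants it was 20.1 and 15.5 FPKM, with a log2 fold change of -0.04 (95% interval -0.40 to 0.33). Its partner Col9a2 was far lower, so the ratio of Col9a3 to Col9a2 lay between 15.1 and 40.4. Exons of Col9a3 overlap Tcfl5, and strand use is not stated, so its level is uncertain.

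The fibril-associated genes Col12a1, Col16a1 and Col19a1 and the less studied Col26a1 were between 0.612 and 4.36 FPKM. Col12a1 was 1.89 and 2.35 FPKM in wild types and 1.70 and 1.86 FPKM in mutants, and Col19a1 was 1.19 and 1.503 against 1.49 and 1.80 FPKM. Col16a1 was 1.13 and 1.09 against 0.612 and 1.602 FPKM, and Col26a1 was 3.02 and 2.51 against 4.36 and 1.95 FPKM. Mutant library 1 was lowest for Col16a1 and highest for Col26a1. The transmembrane collagen gene Col23a1 was 0.842 and 1.14 against 1.22 and 0.826 FPKM, with overlapping groups. Of the 14 other collagens below the filter, no value exceeded 1.51 FPKM. Col13a1, a transmembrane collagen, had 0 FPKM listed for each wild type and 0.281 and 0.0231 FPKM in mutants, and Col8a2, likewise at 0 in the wild types, reached 0.0799 FPKM.

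**Figure D2:**
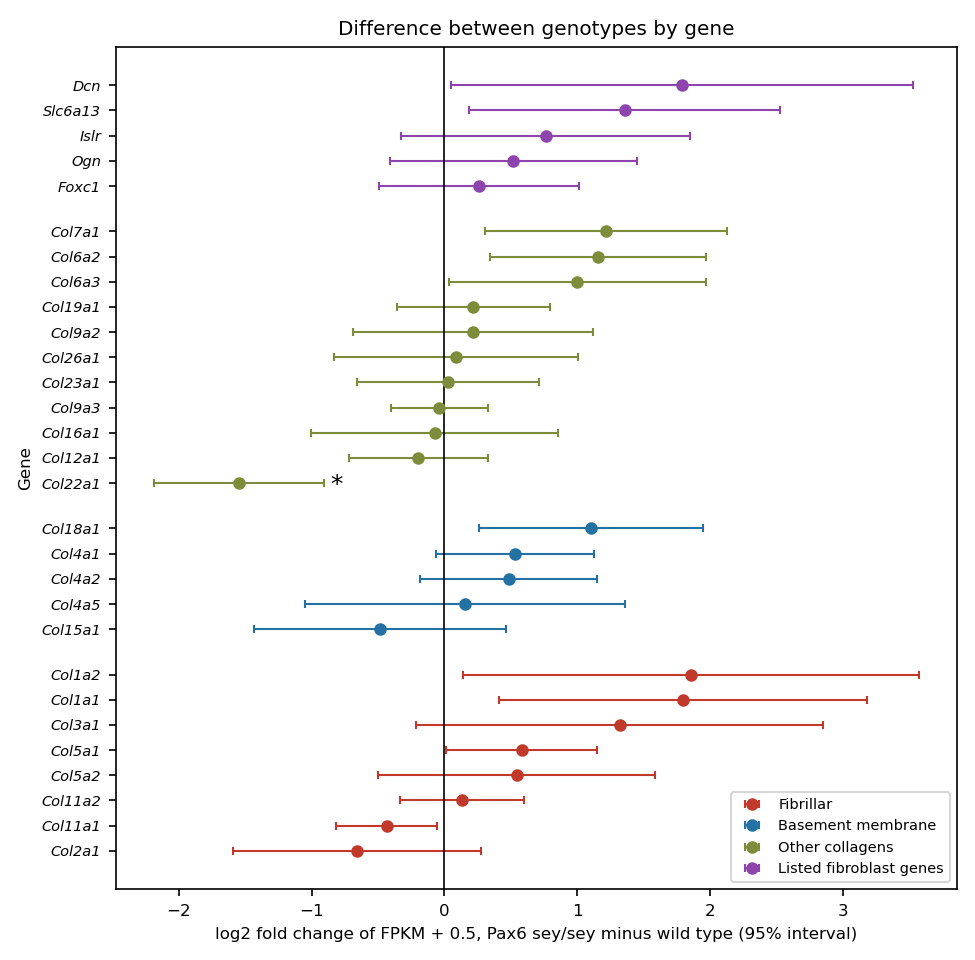
Log2 fold change of FPKM + 0.5 (Pax6 sey/sey minus wild type) for the 29 tested genes with 95% intervals from limma, coloured by class, with a star at an adjusted p under 0.05. Col22a1 at -1.55 is the starred gene, and Dcn and Col1a2 have the widest intervals, from 0.05 to 3.53 and from 0.14 to 3.57.

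The 8 listed genes include small leucine-rich proteoglycans, which bind collagen fibrils and set their spacing. Decorin (Dcn) was 0.932 and 0.141 FPKM in wild types and 5.45 and 1.34 FPKM in mutants. Both mutants were above both wild types, but the wild types themselves differed by over 6-fold, at roughly 45.8 and 5.82 fragments. The log2 fold change was 1.79 (SE 0.68, limma adjusted p = 0.247), and 0.95 without mutant library 1. Lumican (Lum), which lies 46984 bases from Dcn on chromosome 10, was 0.441 and 0.284 FPKM in wild types and 1.98 and 0.232 FPKM in mutants. Here mutant library 2 was the lowest of the 4 libraries, and the gene was below the filter. Ogn, encoding osteoglycin, was 0.956 and 0.950 against 2.38 and 1.003 FPKM, with mutant library 2 close to the wild types. The table gives Ogn the same locus as Aspn, Ecm2, Omd and Cenpp, so its share of the fragments is uncertain.

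Foxc1 and Foxd1 encode forkhead transcription factors, and Foxc1 is needed for meninges to form. Foxc1 was 1.03 and 0.862 FPKM in wild types and 1.63 and 0.903 FPKM in mutants, with mutant library 2 between the wild types (log2 fold change 0.26, 95% interval -0.49 to 1.01, limma adjusted p = 0.689). Foxd1, below the filter, was 0.366 and 0.263 against 0.712 and 0.356 FPKM, again with overlapping groups. Both regulators were highest in mutant library 1, at 1.81 times the level in mutant library 2 for Foxc1 and 2.00 times for Foxd1. Without mutant library 1 the log2 fold change of Foxc1 was -0.04.

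The remaining listed genes encode a secreted protein, a transporter and an enzyme. Islr, an immunoglobulin and leucine-rich repeat protein of mesenchymal cells, was 0.509 and 0.588 FPKM in wild types and 2.13 and 0.701 FPKM in mutants (log2 fold change 0.76, limma adjusted p = 0.402, and 0.20 without mutant library 1). Its exons overlap the annotated gene Islr2. Slc6a13, the GABA and taurine transporter of meninges, was 0.235 FPKM and listed at 0 in wild types and was 1.75 and 0.574 FPKM in mutants (log2 fold change 1.36, SE 0.46, limma adjusted p = 0.205, and 0.83 without mutant library 1). Aldh1a2, below the filter, was 0.0418 and 0.0535 FPKM in wild types, roughly 0.797 and 0.858 fragments, and 1.01 and 0.247 FPKM in mutants. For Slc6a13 and Aldh1a2 each mutant lay above both wild types. For Slc6a13 that order was fixed by the filter, which it passed through the mutants alone.

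The count of genes by highest library was uneven. Mutant library 1 was the highest library for 31 of the 52 genes, including 8 of the 8 listed genes, 6 of 11 fibrillar, 6 of 8 basement membrane and 11 of 25 other collagens. Over all genes of the table, mutant library 1 was highest for 24.3%. Mutant library 2 was highest for 6 of the 52. Mutant library 1 alone had high Xist, so a part of sex in these counts cannot be told apart from other differences of that library. Both mutants lay above both wild types for 18 of the 52 and below for 8, where 22.0% and 21.0% of all genes of the table did so. Both mutants were above both wild types for 14 of the 29 and below for 4, against 25.8% and 25.8% of all tested genes, and 5 of the 29 had to differ through the filter.

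Summed levels show the same by class. The 11 fibrillar collagens summed to 16.7 and 17.6 FPKM in wild types, 33.8 FPKM in mutant library 1 and 17.7 FPKM in mutant library 2. Basement membrane collagens summed to 33.9 and 32.8 FPKM in wild types against 59.7 and 32.9 FPKM in mutants, and other collagens to 32.4 and 31.9 against 39.5 and 29.6 FPKM. For the 8 listed genes the sums were 4.52 and 3.14 FPKM in wild types and 17.0 and 5.36 FPKM in mutants. Relative to the wild-type mean, mutant library 1 was thus at 1.97 (fibrillar), 1.79 (basement membrane), 1.23 (other) and 4.45 (listed genes), and mutant library 2 at 1.03, 0.986, 0.922 and 1.40.

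The genes of fibroblast-type matrix were a small part of these sums in wild types. The 12 genes of types I, III, V and VI summed to 4.73 and 5.48 FPKM in wild types and to 28.8 and 9.03 FPKM in mutants, a ratio to the wild-type mean of 5.65 in mutant library 1 and 1.77 in mutant library 2. This set was put together after the values were seen. Col4a1, Col4a2 and Col9a3 together made up 47.7% to 51.7% of the collagen sum in every library, so 3 genes carried about as much of the length-scaled signal as the other 41.

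Medians over the tested genes give each gene equal weight. Median log2 fold changes were 0.56 for fibrillar, 0.48 for basement membrane and 0.09 for other collagens and 0.76 for the listed genes, where the median over all 15399 tested genes was 0.00062. Without mutant library 1 they were 0.23, 0.10, 0.28 and 0.20, and without mutant library 2 they were 0.85, 0.87, 0.15 and 1.33. Between the wild types the median differences were between 0.01 and 0.17. Between mutant libraries 1 and 2 they were 0.61, 0.90, 0.37 and 1.06, against 0 over all tested genes. These medians leave out the genes below the filter. With those included they were 0.13 for fibrillar, 0.15 for basement membrane and 0.047 for other collagens and 0.71 for the listed genes.

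**Figure D3:**
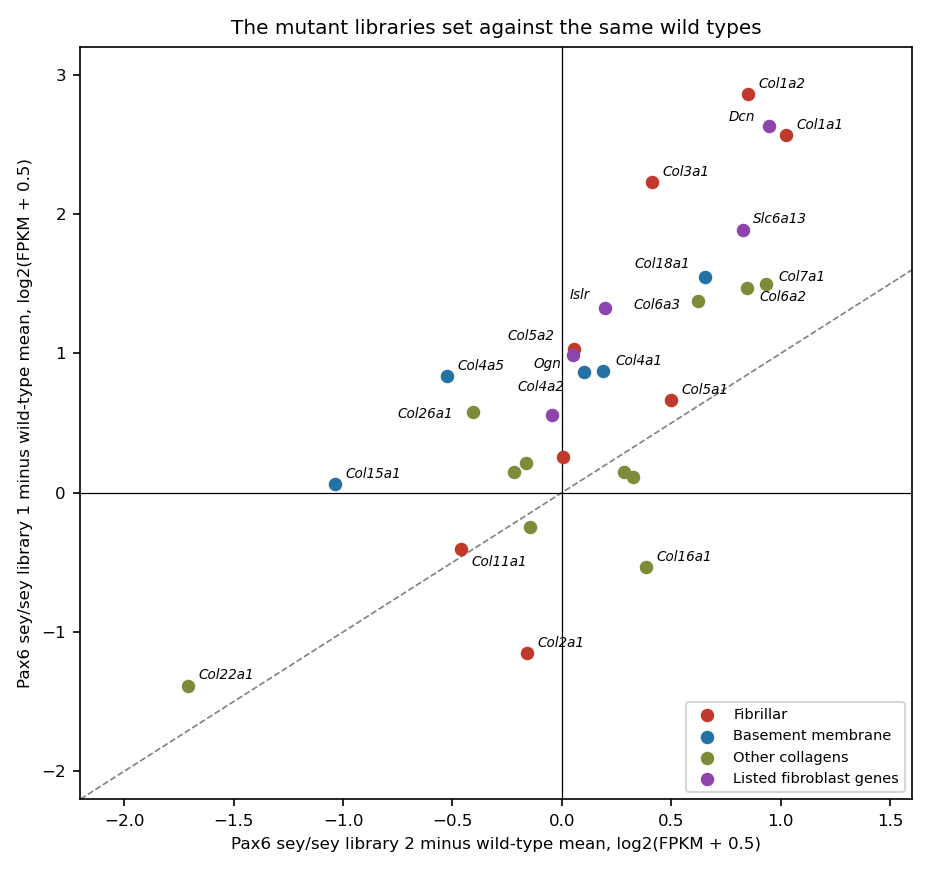
Each tested gene by its difference from the wild-type mean in mutant library 2 (horizontal axis) and mutant library 1 (vertical axis), both in log2(FPKM + 0.5), with the dashed line at equal differences. Both axes use the same wild types. Col1a2, Col1a1, Dcn and Col3a1 lie above 2 on the vertical axis and at or below 1.03 on the horizontal one, and Col22a1 lies at -1.39 and -1.71.

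Enzymes that modify, fold and export collagen in the cell stood at similar summed levels in all 4 libraries. Of 21 such genes 20 were tested and 0 were called by limma, with 2 at an unadjusted p under 0.05 and a median log2 fold change of -0.05. For this list and those below, the share of all tested genes at such a p was 19.5%. The sums of the 21 genes were 412 to 434 FPKM in wild types and 419 and 432 FPKM in mutants. The most abundant were Ppib, a prolyl isomerase (103 and 100.3 FPKM in wild types, 90.5 and 92.4 FPKM in mutants), Mia3, an export factor (72.1 and 66.8 against 63.0 and 101.1 FPKM), and P4hb, a subunit of prolyl hydroxylase (60.1 and 55.9 against 64.4 and 61.8 FPKM). These genes serve other secreted proteins too.

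Of 13 genes that trim and cross-link collagen outside the cell, 8 were tested, and 1 was lower and 0 higher. Adamts2, the protease that removes the amino-terminal propeptide of fibrillar procollagens, was 5.99 and 6.35 FPKM in wild types and 1.80 and 1.10 FPKM in mutants. Both mutants were well below both wild types (log2 fold change -1.80, SE 0.23, limma adjusted p = 0.0324). Leaving out any 1 library gave adjusted p from 0.0703 to 0.213. Lox, the lysyl oxidase that cross-links fibrils, was below the filter at 0.0508 and 0.0747 FPKM in wild types and 0.624 and 0.402 FPKM in mutants, and is named after its values were seen.

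Collagen receptors and companion matrix genes were not called. Among 7 receptor genes 5 were tested and 0 called by limma, with 1 at an unadjusted p under 0.05. Ddr1, a receptor kinase of epithelial and neural cells, was 34.2 and 36.0 FPKM in wild types and 43.8 and 47.8 FPKM in mutants (log2 fold change 0.38, limma adjusted p = 0.0808). Itgb1, the beta chain of collagen-binding integrins, was 40.9 and 42.8 against 42.3 and 39.9 FPKM, and Ddr2, the receptor kinase of mesenchymal cells, was 3.14 and 2.84 against 2.74 and 2.22 FPKM. Neither passed the test (limma adjusted p = 0.881 for Itgb1 and 0.564 for Ddr2). Of 10 other leucine-rich proteoglycans 5 were tested and 0 called, and 0 reached an unadjusted p under 0.05. The most abundant of them, biglycan (Bgn), was 8.63 and 9.003 FPKM in wild types, 16.9 FPKM in mutant library 1 and 7.80 FPKM in mutant library 2. Podn was 3.64 and 2.18 against 1.47 and 1.99 FPKM, and Ecm2 was 0.813 and 0.574 against 0.729 and 0.884 FPKM.

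Of 15 laminin, nidogen and proteoglycan genes of basement membranes 13 were tested and 0 called, 1 of them with an unadjusted p under 0.05. Agrn, encoding agrin, was 107 and 105 against 119.5 and 128 FPKM. The laminin chains Lamc1 (10.1 and 9.54 against 9.50 and 7.58 FPKM) and Lamb1 (9.01 and 8.95 against 8.57 and 6.68 FPKM) were lower in both mutants than in both wild types, and the list had a median log2 fold change of 0.22. Mutant library 1 was not the highest library for any of these 3 genes, but it was highest for 7 of the 15 and above mutant library 2 for 11 of the 13 tested. The shares were 24.3% of all genes of the table and 49.9% of all tested genes.

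Markers of cells that could carry these genes also differed between libraries. Of 24 other genes of meninges, 23 were found in the table and 11 were tested, with 0 called by limma and 3 at an unadjusted p under 0.05. Mutant library 1 was highest for 15 of the 23 (24.3% of all genes of the table). Both mutants were above both wild types for 13 and below for 3, where 22.0% and 21.0% of all genes of the table did so. Among the 11 tested genes this held for 4 and 1, against 25.8% and 25.8% of all tested genes. The rest of these counts came from genes below the filter, which rest on few fragments. The list summed to 65.7 and 58.6 FPKM in wild types and 84.1 and 56.9 FPKM in mutants. Fn1 (fibronectin) and Cxcl12 (a chemokine of the pia), the most abundant, were 32.3 and 25.1 against 26.7 and 18.9 FPKM, and 14.9 and 14.1 against 23.9 and 11.1 FPKM. Ptgds, the next most abundant, was 2.62 and 3.31 FPKM in wild types and 3.58 and 13.1 FPKM in mutants, highest in mutant library 2. Gjb2, Gjb6, Itih2 and Wnt6 were listed at 0 in both wild types.

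Endothelial markers, 13 of 13 tested with 0 called by limma and 4 at an unadjusted p under 0.05, were higher in mutant library 1 than in mutant library 2 for all 13. Over all tested genes 19.5% reached such a p, and mutant library 1 was above mutant library 2 for 49.9%. The markers summed to 92.0 and 91.8 FPKM in wild types and 112 and 87.8 FPKM in mutants. Their most abundant genes were Cldn5, a tight junction protein (22.7 and 22.7 against 31.0 and 26.3 FPKM), the transporter Slco1c1 (20.6 and 19.5 against 14.1 and 11.7 FPKM) and the lipid transporter Mfsd2a (13.0 and 15.8 against 14.0 and 10.7 FPKM). Both mutants were above both wild types for 7 of the 13 (Cldn5, Tek, Kdr, Tie1, Pecam1, Cdh5 and Flt1) and below them for 1, Slco1c1. Of all tested genes, 25.8% lay above in this way and 25.8% below.

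Of 11 pericyte and mural markers 10 were tested, with 0 called and 1 at an unadjusted p under 0.05 (19.5% of all tested genes). The list summed to 52.0 and 46.6 against 60.5 and 53.5 FPKM. Both mutants were above both wild types for 6 of the 11 and below for 1, where 22.0% and 21.0% of all genes of the table did so. Rgs5, the most abundant of the list, was 25.2 and 22.3 FPKM in wild types and 32.2 and 27.3 FPKM in mutants. Higd1b (6.08 and 5.86 against 5.74 and 6.12 FPKM) and Abcc9 (3.68 and 3.90 against 4.04 and 4.63 FPKM) followed.

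Of 10 genes of microglia and macrophages, both mutants were above both wild types for 5 and below for 2, and mutant library 1 was highest for 7. Over all genes of the table these shares were 22.0%, 21.0% and 24.3%. Pf4, Mrc1 and Lyve1, known from macrophages at brain borders, were all below the filter and highest in mutant library 1. For Pf4 each wild type was listed at 0, and the mutants had 1.69 and 0.244 FPKM, and Mrc1 was 0.242 and 0.179 against 1.95 and 0.491 FPKM. Aif1 and P2ry12, genes of microglia, were lower in both mutants than in both wild types, at 4.44 and 5.95 against 2.78 and 3.013 FPKM and at 4.58 and 6.005 against 2.56 and 3.59 FPKM. The complement gene C1qa was 3.22 and 2.78 against 5.04 and 3.83 FPKM, and C1qb was also higher in both mutants, while C1qc, Cx3cr1 and Csf1r had overlapping groups. The whole list of 10 summed to 20.4 and 25.5 FPKM in wild types and 27.7 and 19.4 FPKM in mutants. Of these, 7 were tested, with 0 called by limma and 2 at an unadjusted p under 0.05 (19.5% of all tested genes). Erythroid genes, 8 of 8 tested with 0 called by limma and 1 at an unadjusted p under 0.05, summed to 1559.6 and 1729 FPKM in wild types and 1816 and 1748 FPKM in mutants. The globin genes Hbb-bs (543 and 537 against 596 and 554 FPKM), Hba-a1 (345 and 442 against 436 and 427 FPKM) and Hba-a2 (319 and 393 against 376 and 397 FPKM) led that sum.

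How much the amount of meninges, vessels or blood left on each dissected cortex contributes to the collagen values was not tested.

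**Figure D4:**
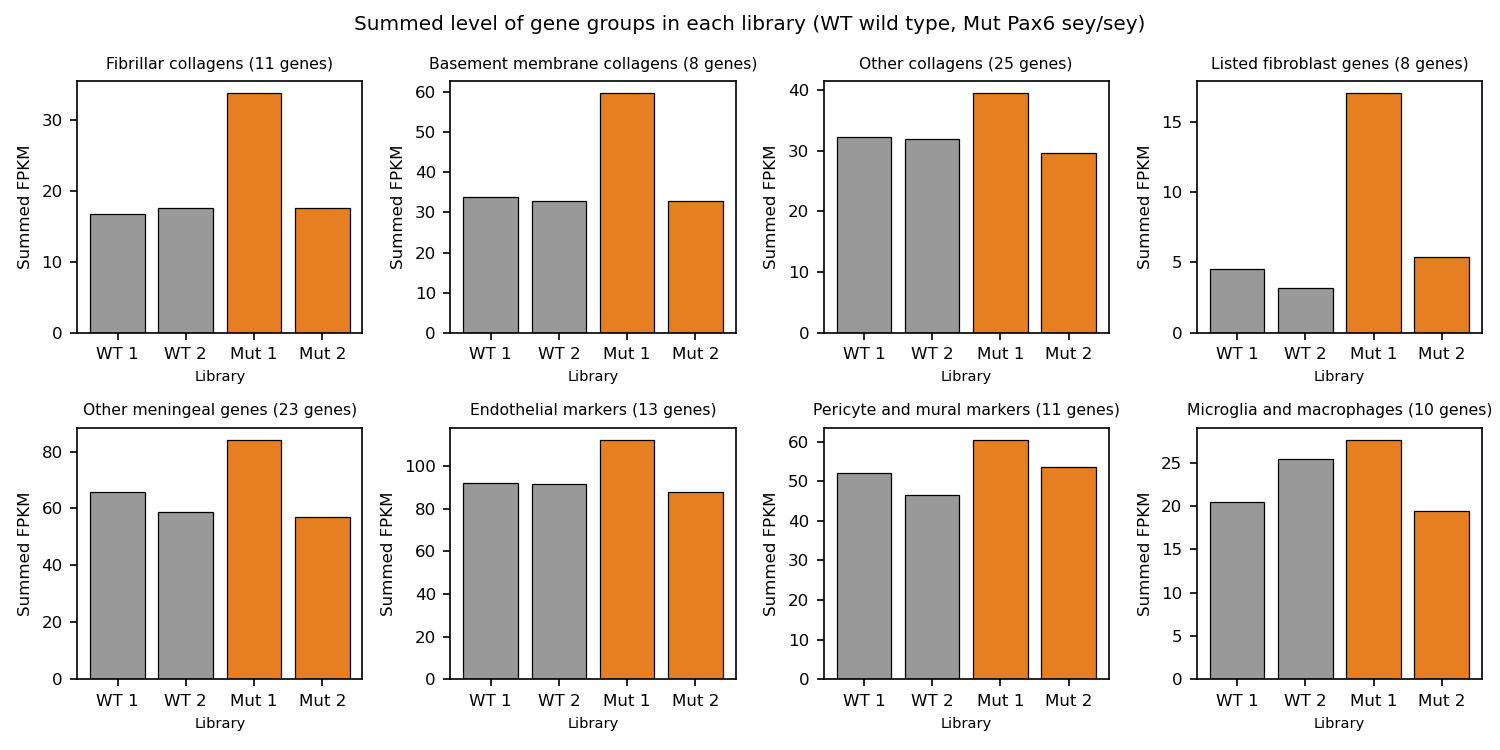
Summed FPKM of the 4 classes described here (top row) and of 4 marker lists (bottom row) in each library, each panel with its own axis from 0, grey for wild types and orange for Pax6 sey/sey. Mutant library 1 has the tallest bar in each of the 8 panels, reaching 17.0 FPKM for the listed genes where the other libraries have 3.14 to 5.36 FPKM.

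In the authors' deposited table none of the 52 genes (0 of 52) had a p-value under 0.05, where 417 of all 22770 genes did. The smallest p-value of a member in the authors' deposited table was 0.123, for Col1a2, and Col22a1 had 0.625 there.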

How the data were processed

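The authors deposited 1 table with an FPKM value per gene and library and a p-value for their comparison of mutants with wild types, per the file headers. TopHat2 2.0.9, edgeR and Cufflinks 2.2.1 are listed in the submitters' processing notes without a role. Strand use, scaling beyond FPKM and the test behind the deposited p-value are not given in the sources used here. Genes reaching 0.5 FPKM in any 2 libraries were put on the log2(FPKM + 0.5) scale and tested with limma 3.58.1 in R 4.3.3, with a mean-variance trend and 3.05 prior degrees of freedom. P-values were adjusted by Benjamini and Hochberg's method across every gene tested, and 0.05 was the threshold. This scale understates changes of low genes. The fit was tested on simulated data. It called 16% of planted 1.5-fold, 42% of 2-fold and 76% of 4-fold changes. A gene that was not called may therefore still differ. The share of false calls in the deposited libraries was not tested. With 2 libraries a group, an exact permutation test cannot go below p = 0.333, so none is given.

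Collagens and gene lists were chosen with earlier results of these data known. All members above the filter are named. Values in all 4 libraries are given for those with a mean of at least 1 FPKM or an adjusted p under 0.05, and of each other list the called genes or otherwise the 3 most abundant. Further genes, among them members under the filter and those with a mean under 1 FPKM, were chosen after their values were seen. Coordinates are those of GENCODE M21 on GRCm38. Exons of 9 of the 29 tested members overlap another annotated gene. Fragment numbers are estimates from the step of the lowest values. Alternatives were another pseudocount, filter, scaling or variance model, a replicate block, and leaving out each library. The labels do not pair same-numbered libraries.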

Additional observations from a re-analysis of the deposited data

How the results depend on the processing

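The count of 536 called genes was 61 with no filter on low values, 54 without the mean-variance trend and 7 to 59 when 1 library was left out, which leaves 1 library in a group, assumed to vary like the other group. With the replicate number as a block it was 374. The differences of libraries 1 and 2 correlated at 0.05 between the genotypes across genes. A low correlation cannot show whether same-numbered libraries share a litter or a day, so pairing is not known. The single called member fell to 0 with a pseudocount of 0.1 (adjusted p of Col22a1 0.0597), no filter, a filter of 1 FPKM, no trend, the replicate block (0.0656) and each left-out library (0 to 0). With no filter the fibrillar median was 0.13 and the basement membrane median 0.15, and the latter was 0.10 to 0.87 with a library left out. For other collagens it was 0.047 with no filter, 0.024 with a filter of 1 FPKM and -0.027 to 0.28 with a library left out. That of the listed genes was 0.20 to 1.33 with a library left out. Adamts2 lost its call without the filter (0.0869) or the trend (0.0744). Of 24 members followed through up to 12 alternatives, 17 kept the sign of their fold change throughout. Low values rest on few fragments, which limits what the members under 0.5 FPKM can show.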
